A study of Homo sapiens with 4 samples.

Results

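A 900-kb stretch of human chromosome 19, in band 19q13.31, held 801 of the 211947 regions that the authors listed as Argonaute-bound RNA in HEK293, a human embryonic kidney cell line. The members were all regions of either strand whose start lay between 44100000 and 45000000 on the genome build hg19. They made up 0.378% of the list and 5.79% of the regions of chromosome 19. The lowest member, at 44100587 to 44100626, had score 2, and the nearest region below the window, at 44099376 to 44099403, had score 1. The highest member, at 44990814 to 44990833, had a score of 2, as did the nearest region above the window, at 45004500 to 45004525.

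The list came from PAR-CLIP, in which cells take up 4-thiouridine, RNA is crosslinked to a chosen protein by long-wave ultraviolet light, and the RNA that comes down with the protein is sequenced. There were 3 AGO1 libraries, precipitated with an antibody to the FLAG tag from HEK293 cells that stably express His/FLAG/HA-tagged protein, and 1 AGO2 library, precipitated with an antibody to AGO2. The labels of the AGO2 library name untagged HEK293 cells, whereas the series' design text speaks of tagged lines for both proteins. Cells were fed for 16 h with 200 µM (AGO1) or 100 µM (AGO2) 4-thiouridine and irradiated at 365 nm. No group without crosslinking was analysed here, nor a control precipitation with the FLAG antibody from untagged cells. The score of a region is the authors' own value, a whole number from 1 to 1000 over the whole list, and its meaning was not given in the sources used here. Each region had 1 score, and the list names no library, so which of the libraries it rests on is unknown. No value below therefore has a replicate or a test, AGO1 could not be set against AGO2, and the depth of the libraries is unknown.

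Argonaute proteins carry microRNAs and bring them to messenger RNAs by pairing of the microRNA seed. Zinc finger genes of the C2H2 type code for proteins in which a short finger motif recurs many times in tandem, and many of them also carry a KRAB domain, which recruits repressors of transcription. Such genes arose by repeated duplication and stand in clusters on chromosome 19, and their tandem finger repeats are known to hold repeated seed matches to some microRNAs within the coding sequence. In the RefSeq gene table of the assembly GRCh38.p14, all 20 protein-coding genes from ZNF283 to ZNF180 have zinc finger symbols. In order they are ZNF283, ZNF404, ZNF45, ZNF221, ZNF155, ZNF230, ZNF222, ZNF223, ZNF284, ZNF224, ZNF225, ZNF234, ZNF226, ZNF227, ZNF233, ZNF235, ZNF112, ZNF285, ZNF229 and ZNF180. RefSeq's promoter table gives a strand for 16 of them. ZNF283 is on the plus strand, ZNF404 and ZNF45 on the minus strand, the 8 with a strand from ZNF230 to ZNF227 on the plus strand, and the 5 from ZNF235 to ZNF180 on the minus strand. The ends of this list, ZNF283 and ZNF180, were chosen for it, and genes beyond them were not listed. The list therefore need not span the whole window, and it does not show that all genes of the window are zinc finger genes. These names describe the neighbourhood only. No annotation or sequence of hg19 was used here, so no region was assigned to a gene, an exon or a seed match, and regions are named by their hg19 position.

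The regions of the window lay mostly on the plus strand. There were 573 plus-strand regions (71.5%, Wilson 95% interval 68.3 to 74.6) with a summed score of 2747, and 228 minus-strand regions with a summed score of 1276. In the other 210871 nuclear regions of the list the plus-strand share was 51.6%. Scores were alike on both strands of the window, with a median of 3 on each and an interquartile range of 2 to 5 on the plus and 2 to 6 on the minus strand. A score of at least 10 was held by 63 plus-strand regions (11.0%, interval 8.69 to 13.8) and 31 minus-strand regions (13.6%, 9.75 to 18.7), and these intervals overlap. All Wilson intervals here cover counting error only, and neighbouring regions are not independent.

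The strand in use followed position. Between 44100001 and 44300000 the minus strand held 49 regions, 25 and 24 in the lower and the upper 100 kb, and the plus strand held 11, all in the lower 100 kb. From 44300001 to 44400000 the plus strand led with 50 regions against 11. From 44400001 to 44500000 both strands were filled, with 57 plus-strand and 63 minus-strand regions. The plus strand then held 96 of 98 regions from 44500001 to 44600000, 195 of 223 from 44600001 to 44700000 and 164 of 172 from 44700001 to 44800000. The last plus-strand region lay at 44779381 to 44779402, and the 69 regions beyond it were all on the minus strand, 17 of those from 44800001 to 44900000 and 50 from 44900001 to 45000000. The fullest 100-kb part, from 44600001 to 44700000, thus had 223 regions, and the emptiest, from 44800001 to 44900000, had 17.

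**Figure D1:**
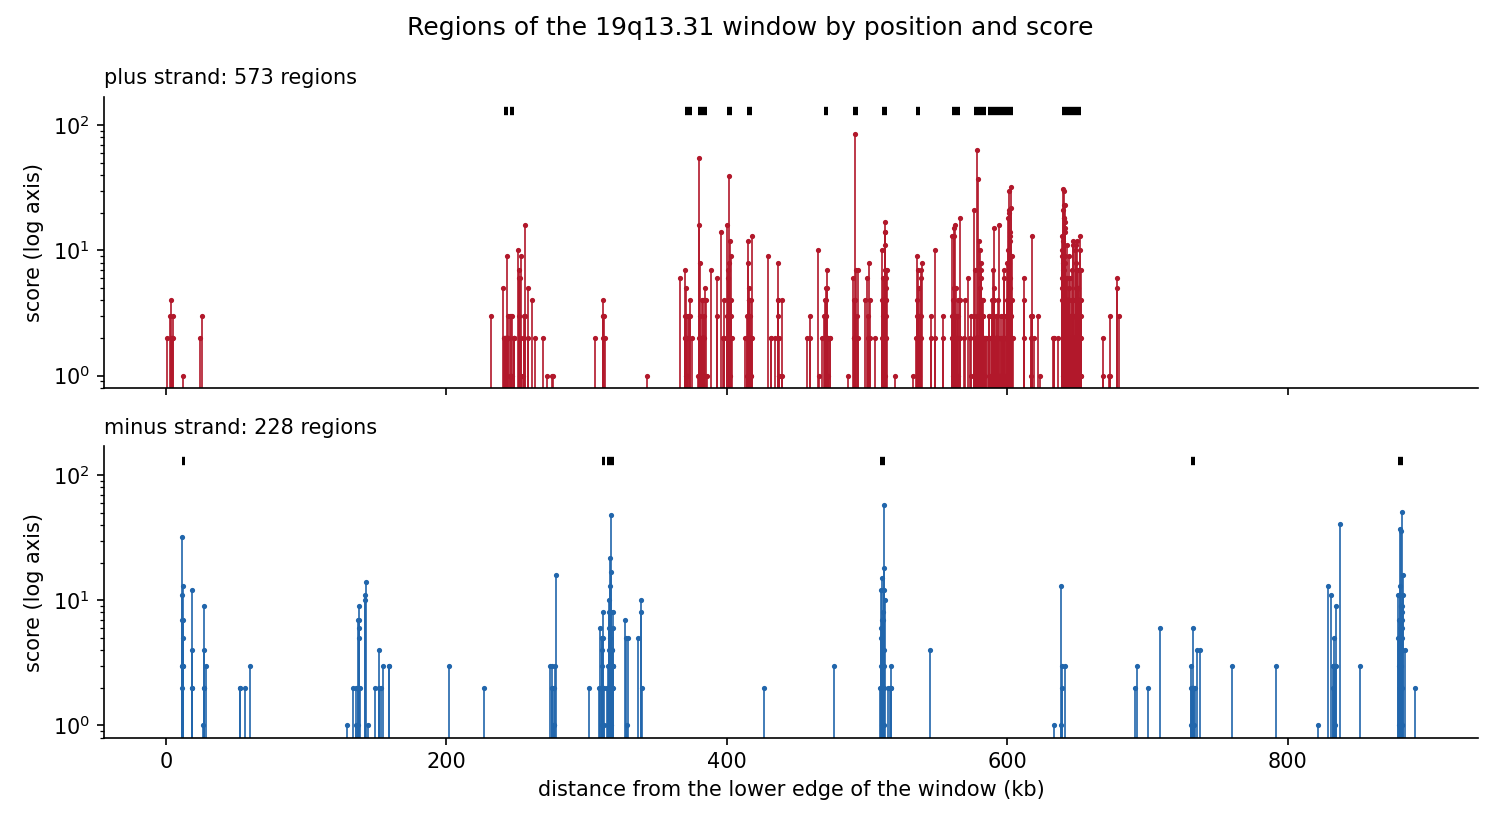
Score of each region on a log axis against its distance from the lower edge of the window in kb, with the 573 plus-strand regions above and the 228 minus-strand regions below; black bars mark arrays of at least 10 regions, and bars of short arrays are widened to 2.5 kb to be visible. Plus-strand regions crowd the middle of the window, and only minus-strand regions are found near its upper end.

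Large parts of the window had no region on either strand. The longest bare stretch ran from 44159645 to 44229053, or 69409 nt, and the next from 44259036 to 44301686, or 42651 nt. The regions themselves covered 30837 nt, 3.43% of the window when both strands are summed.

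Single regions in the window resembled those elsewhere in size and score. Members had a median width of 32 nt, with quartiles at 27 and 44 nt, and the other nuclear regions the same median with quartiles at 25 and 43 nt. The median score was 3 in both. The lowest scores took a smaller share of the members than of the other nuclear regions, with 102 members at score 1 and 252 at score 2. This left 447 members (55.8%, 52.3 to 59.2) at 3 or more, against 50.6% (50.4 to 50.8) of the other nuclear regions. The difference was not particular to the window, since the rest of chromosome 19 had 54.02%, within the interval of the members. Other stretches of that chromosome, at 37 to 38, 52 to 54 and 57 to 59 Mb, had 57.72, 54.73 and 59.78%. At higher scores the share of the other nuclear regions lay within the interval of the members. A score of 10 or more was held by 11.7% of the members (9.69 to 14.1) and 10.99% of the other nuclear regions, 20 or more by 24 members (2.996%, 2.02 to 4.42) and 4.05%, and 30 or more by 16 members (1.9975%, 1.23 to 3.22) and 2.14%. No member reached 100 (0 of 801, Wilson upper bound 0.477%), a level held by 0.249% of the other nuclear regions, so a share of that size was not detectable as missing in 801 regions. Width and score went together: members with score 1 had a median width of 29 nt, those with 6 to 10 had 44 nt and those with 21 to 50 had 76.5 nt. The 5 members above 50 had a median width of 63 nt, whereas the 1860 other nuclear regions above 50 had 93 nt. Spearman's rho of width and score was 0.440 across the 801 regions, against 0.452 across the other nuclear regions.

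**Figure D2:**
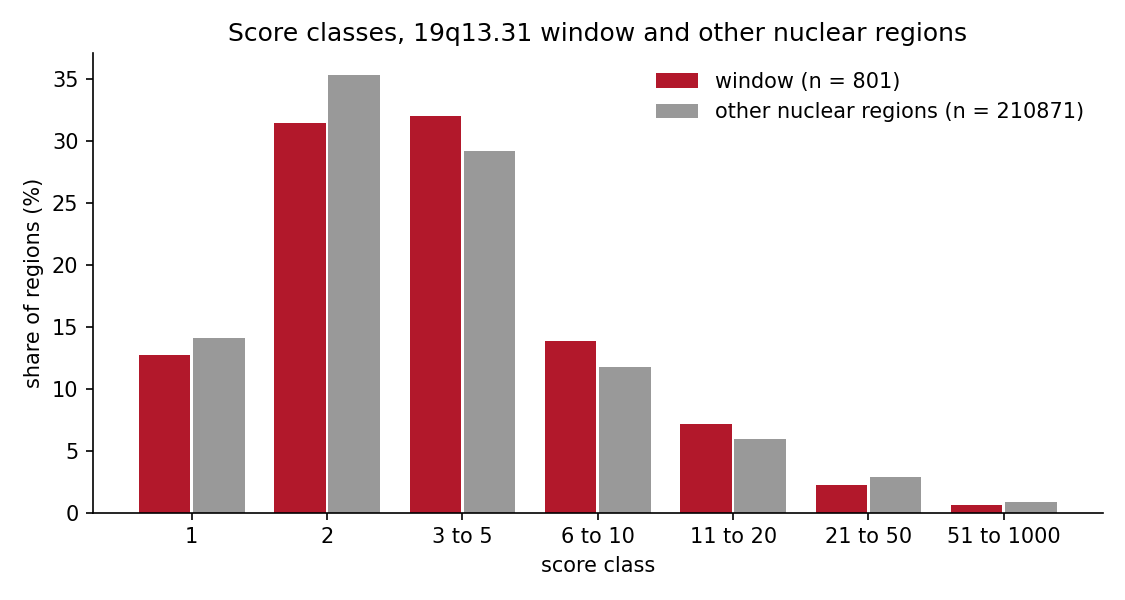
Share of regions in percent by score class, for the 801 regions of the window and the 210871 other nuclear regions. The window has smaller shares at scores of 1 and 2 and larger shares from 3 to 20, and its shares above 20 are smaller.

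The members stood close together, although this window was known to be densely filled when it was chosen, so their closeness is a description. A run here joins neighbours on 1 strand no more than 1000 nt apart, and an array is a run of at least 10 regions. Of the 801 regions, 577 lay in 20 arrays (72.0%, with Wilson bounds of 68.8 and 75.03). The share was 40.2% for the other nuclear regions and 45.2% for the rest of chromosome 19. A further 157 regions lay in 41 runs of 2 to 9 regions, and 67 had no neighbour within 1000 nt. The median distance to the nearest region of the same strand was 48 nt, compared with 81 nt in the other nuclear regions. A same-strand neighbour stood within 100 nt of 66.7% of the members (63.3 to 69.8), against 53.4% (53.2 to 53.6) of the other nuclear regions. Arrays held 78.9% of the window's summed score of 4023, against 51.6% of that of the other nuclear regions. Members in arrays had a mean score of 5.499 and those outside 3.79, both with a median of 3, and 78 of the 94 members that reached a score of 10 lay in arrays.

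Some other stretches of chromosome 19 known to hold zinc finger clusters were set beside the window, with no test between them. Their shares were similar except from 52 to 54 Mb. Of the 842 regions from 37 to 38 Mb, 70.3% (67.1 to 73.3) lay in arrays, and of the 1298 regions from 57 to 59 Mb, 74.2% (71.7 to 76.5). From 52 to 54 Mb the share was 52.1% of 497 regions (47.7 to 56.5), below that of 19q13.31. The regions of an array enter these shares together, so the intervals are too narrow to compare the stretches. Of the summed score, arrays held 83.2% from 37 to 38 Mb, 87.1% from 57 to 59 Mb and 46.0% from 52 to 54 Mb. The median distance to the nearest region of the same strand was 43, 31.5 and 96 nt in these stretches, in the same order. In the rest of chromosome 19 it was 61 nt.

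The 14 plus-strand arrays held 448 regions and the 6 minus-strand arrays 129. Their order along the chromosome went by strand in blocks, with a minus-strand array at the lower end of the window, plus-strand arrays through the middle and minus-strand arrays at the upper end, except for 3 minus-strand arrays in the middle. Arrays spanned 837 to 18218 nt with a median of 3339 nt, against 2842 nt for the 4297 other nuclear arrays. Within them stood 3.04 to 13.1 regions per kb (median 5.92, against 6.26 in the other arrays), and regions covered 10.1 to 49.2% of the span.

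The array with the most regions ran along the plus strand between 44738879 and 44752747. Its 111 regions were 13.9% of all members, had a median width of 39 nt and a median score of 4, and stood a median of 40 nt apart with no gap over 621 nt. Regions of high score gathered at its 5′ end. In the first 2 kb, from 44738879 to 44740878, 23 regions had a median score of 8 and a sum of 251, and the highest, at 44739631 to 44739662, had score 31. The next 2 kb, from 44740879 to 44742878, held 15 regions with a summed score of 126 and a median of 6. The 5 remaining steps, the last of them cut short by the end of the array, each held 10 to 19 regions with medians of 2 to 4 and summed scores of 34 to 83. Of the 22 regions in it that reached a score of 10, 15 lay in the first 4 kb.

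The array next in size showed the opposite lean. It occupied the plus strand from 44686021 to 44704238, the longest span in the window at 18218 nt, with 78 regions whose scores had a median of 3 and a sum of 422. Its 3′ part, from the middle of the span to the 3′ end, carried 74.9% of that score, and its highest regions lay there, at 44702576 to 44702724 (score 32) and 44701139 to 44701222 (score 30). The array of 47 regions from 44676275 to 44684863 leaned to the 5′ side, with 30.2% of its summed score of 258 in the 3′ part. Those 3 plus-strand arrays together held 236 regions or 29.5% of the members. Across the 20 arrays no common lean was seen, since 8 had more than 50% of their score in the 3′ part, as had 49.5% of the other nuclear arrays.

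**Figure D3:**
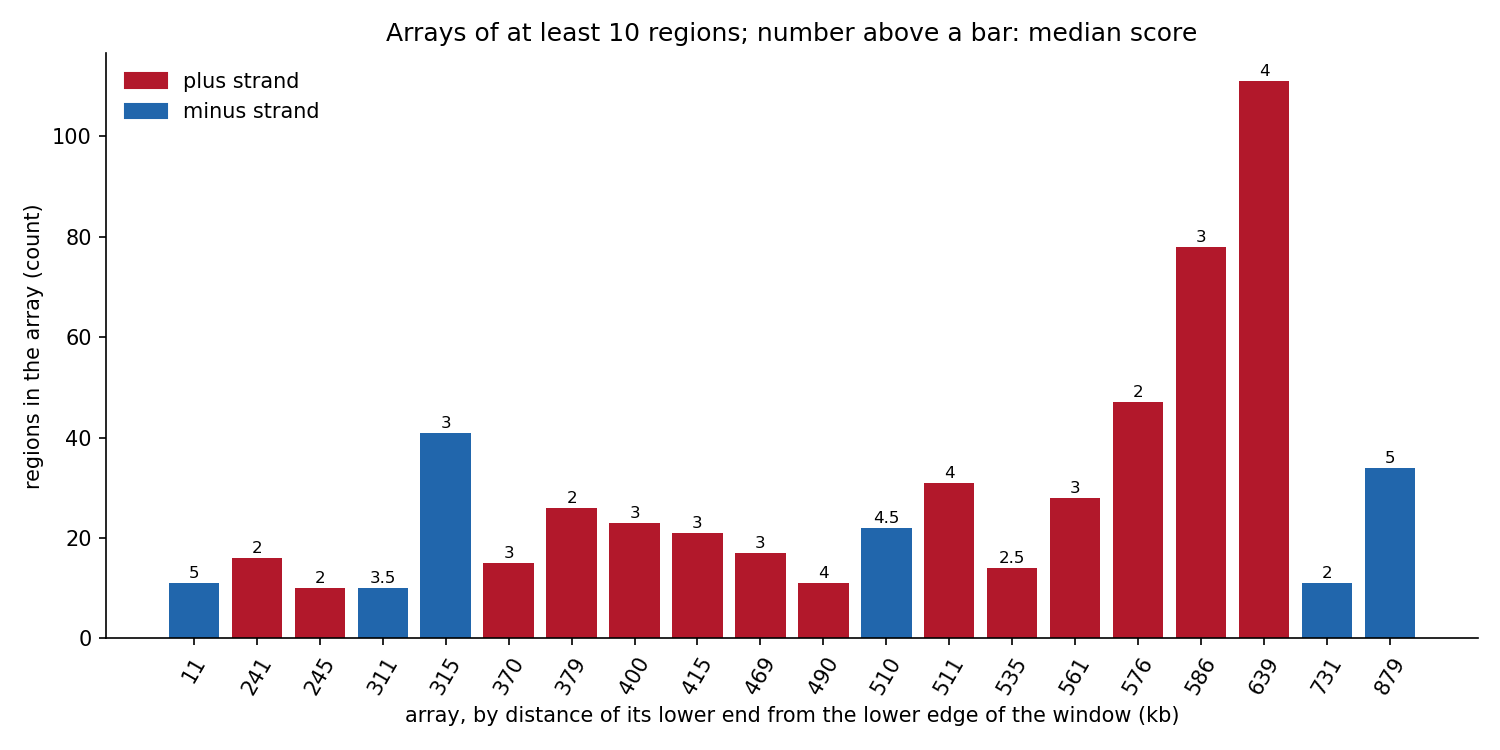
Number of regions in each of the 20 arrays, in order of position and coloured by strand, with the median score of each array above its bar; arrays are named by the distance of their lower end from the lower edge of the window in kb. The 3 tallest bars, of 47, 78 and 111 regions, are neighbours on the plus strand, and median scores lie between 2 and 5.

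On the minus strand the array with the most regions, 41, ran from 44414539 to 44419190, where scores summed to 224 and reached 48. The densest by covered length among the larger ones lay near the upper edge of the window, from 44978773 to 44982094. It had 34 regions that covered 46.4% of 3322 nt, a median gap of 19 nt, a median score of 5 and a sum of 297, which was higher per region than in the array of 111. The short array from 44111399 to 44112235, at the other end of the window, had 11 regions over 837 nt, a coverage of 49.2% and likewise a median score of 5. By contrast, the 11 regions of the array from 44830864 to 44833691 had a median score of 2 and none above 6.

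Several of the highest scores, but not all, were single regions that stood out of arrays with low scores. The 10 regions of highest score, 5 on each strand, had scores of 37 to 86 and carried 12.8% of the window's summed score, and 9 of them lay in 7 arrays. Their widths ran from 24 to 161 nt, with 5 of the 10 at 100 nt or more and 3 under 50 nt. In the stretches at 37 to 38, 52 to 54 and 57 to 59 Mb, the 10 highest regions carried 10.7, 25.6 and 11.0% of the summed score. Those stretches differ in their number of regions.

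The highest of all, at 44591632 to 44591673 on the plus strand, was 42 nt wide with a score of 86. It carried 68.8% of the summed score of its array, and the other 10 regions of that array had scores of 2 to 7. A narrow region of 32 nt at 44678223 to 44678254, also on the plus strand, had a score of 64 among 46 regions with a median of 2 and a highest of 37. That score of 37 belonged to the widest member, 161 nt, about 1 kb downstream at 44679238 to 44679398. On the same strand the region at 44480164 to 44480226 had a score of 55, in an array of 26 where the next highest was 16, and a region of 142 nt at 44501585 to 44501726 had a score of 39.

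On the minus strand, a region of 127 nt at 44612185 to 44612311 had a score of 58, followed by regions of 108 nt at 44981190 to 44981297 (51) and 89 nt at 44417458 to 44417546 (48). The array near the upper edge held further high regions, at 44980347 to 44980446 (score 37) and 44980621 to 44980686 (score 36), so its score did not rest on 1 region. The region at 44937158 to 44937181 was an exception among the 10. It was 24 nt wide with a score of 41 and belonged to no run, its nearest neighbour on the strand being 2628 nt away.

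Between these extremes stood a series of plus-strand arrays of middling size. From the lower end they were the arrays of 15 regions from 44470131 to 44474909 (summed score 43), 26 from 44479344 to 44485571 (129), 23 from 44500309 to 44503664 (138) and 21 from 44514514 to 44518045 (80). Higher up followed those of 11 regions from 44590095 to 44593712 (125), 14 from 44635171 to 44637292 (46) and 28 from 44660574 to 44666519 (143). Over the 20 arrays those with more regions mostly had higher sums, from 20 for an array of 10 regions to 664 for that of 111. Not all kept to this order. The array of 34 regions had a sum of 297, above those of 41 (224) and 47 (258). The array of 11 from 44590095 to 44593712 was also an exception, since 1 region with a score of 86 made up most of its sum. The array of 28 had 5 regions with scores of 10 or more, the highest 18, at 44666484 to 44666519, whereas in the array of 11 that region alone reached 10.

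At the other end of the scale, 7 of the 20 arrays had no region with a score of 10 or more. These included the array of 16 regions from 44341384 to 44344170 (highest score 9), that of 10 regions from 44345237 to 44348490 (highest 3) and that of 17 regions from 44569348 to 44572228 (highest 7). Isolated regions, more than 10000 nt from any other on their strand, were 9 of 801 (1.12%, 0.592 to 2.12), against 8.35% of the other nuclear regions, and their scores were 1 to 4. Of these 9, 8 lay on the minus strand. The share of isolated regions was 3.51% in the rest of chromosome 19. From 37 to 38, 52 to 54 and 57 to 59 Mb it was 0.713, 3.62 and 0.924%.

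Regions of opposite strands overlapped in several places. Of the 801 members, 32 overlapped a region of the other strand (4.00%, with Wilson bounds of 2.84 and 5.59). The share was 0.299% (0.277 to 0.323) in the other nuclear regions and 0.322% in the rest of chromosome 19. An opposite-strand neighbour stood within 100 nt of 55 members (6.87%, 5.31 to 8.83), against 0.773% of the other nuclear regions. The stretches at 37 to 38, 52 to 54 and 57 to 59 Mb held no overlapping region (0 of 842, 0 of 497 and 0 of 1298, with Wilson upper bounds of 0.454, 0.767 and 0.295%). These differences were not tested, since overlapping regions come in groups.

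Of the 32 overlapping members, 17 came from 1 place, where a minus-strand array of 22 regions (44609560 to 44612459) and a plus-strand array of 31 (44610740 to 44613970) shared 1720 nt, from 44610740 to 44612459. Within the shared stretch each strand had 14 regions, with a summed score of 131 on the minus strand and 51 on the plus strand. The highest minus-strand scores, 58 at 44612185 to 44612311 and 18 at 44612315 to 44612383, lay near the 5′ end of that array, next to a region with a score of 10 at 44612433 to 44612459. Scores of 15 at 44610391 to 44610433 and 12 at 44609599 to 44609649 lay toward its 3′ end, outside the shared stretch, and a further score of 12, at 44612072 to 44612095, lay within it. Opposite these stood plus-strand regions with scores of 1 to 3, at 44612219 to 44612244, 44612288 to 44612315, 44612359 to 44612382 and 44612425 to 44612447. Beyond the shared stretch the order turned, and the plus-strand array had its highest scores, up to 17 at 44613100 to 44613152. Its 3′ part carried 71.4% of its summed score of 161. In this pair of arrays 17 of 53 regions overlapped the other strand and 27 had an opposite-strand neighbour within 100 nt. Without the pair, 15 of the other 748 members overlapped the other strand (2.01%, 1.22 to 3.28) and 28 had a neighbour there within 100 nt (3.74%, 2.60 to 5.36).

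**Figure D4:**
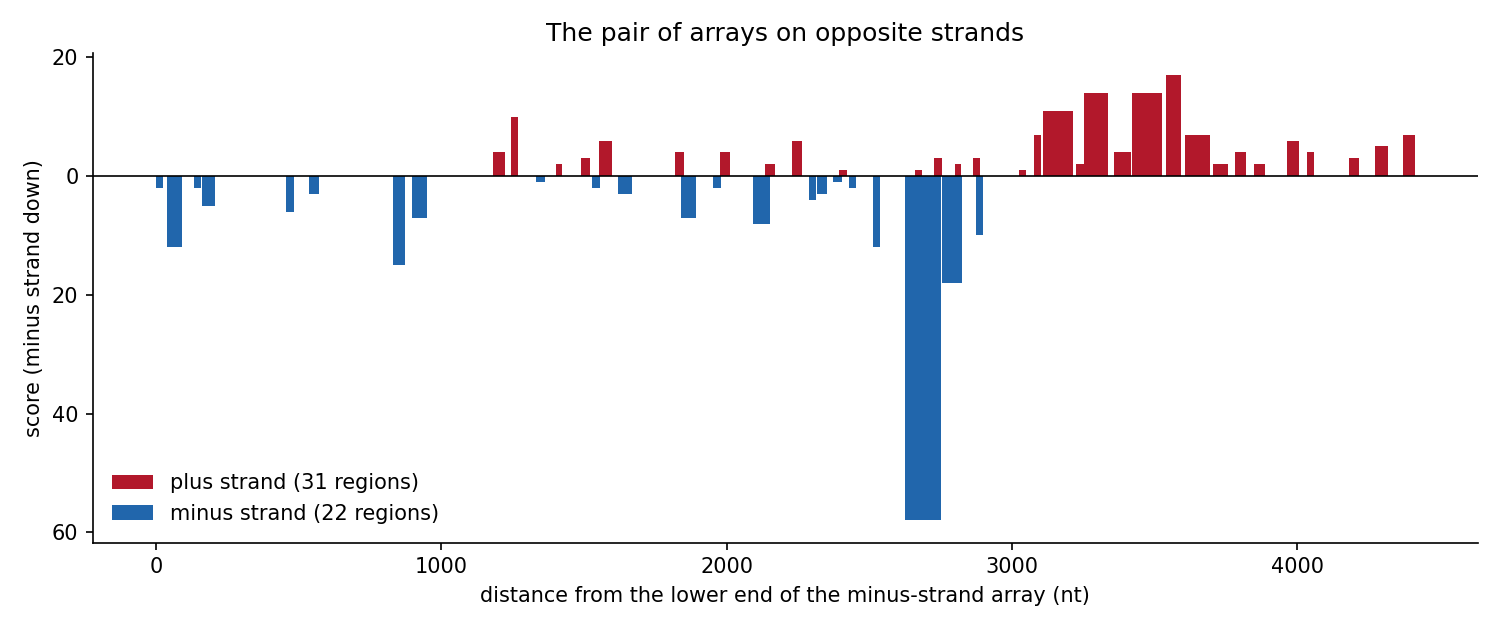
Score of each region, drawn at its true width, against the distance in nt from the lower end of the minus-strand array, with the 31 plus-strand regions upward and the 22 minus-strand regions downward. The highest minus-strand region, with a score of 58, faces plus-strand regions with scores of 1 and 3, and the higher plus-strand scores lie beyond the end of the minus-strand array.

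The remaining overlaps lay in 3 places. In the array of 111 regions, 3 minus-strand regions with scores of 2 and 3, the lowest starting at 44738977 and the highest ending at 44740838, overlapped 4 plus-strand regions with scores of 4 to 18. Of these overlaps 3 were 6 to 10 nt long, and in the other the minus-strand region at 44740815 to 44740838 lay wholly within a plus-strand region with a score of 18, over 24 nt. In the minus-strand array from 44410701 to 44412256, 3 of the 10 regions were overlapped by plus-strand regions with scores of 2 and 3, by 5 to 9 nt. The last pair, at 44375517 to 44375525, had scores of 1 on the plus and 2 on the minus strand.

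Spacing of regions at the length of the zinc finger repeat was looked for and was not evident in the window. A finger and its linker are commonly 28 residues long, or 84 nt of coding sequence. If 1 site recurred in successive fingers, distances between regions would gather at multiples of 84 nt. Distances were taken between the 1-nt positions that the file marks inside each region, for all 2225 pairs of members of 1 strand up to 600 nt apart. There were 476 pairs within 8 nt of one of the 7 multiples. Within 8 nt of the 7 points that lie 42 nt below these multiples there were 466, a ratio of 1.02. The first group was 50.5% of both (Wilson 95% interval 47.3 to 53.7). On the other chromosomes that share was 49.3%. The 3 arrays with the most regions had ratios of 1.01, 1.0 and 0.970. From 37 to 38 Mb the ratio was 1.21, from 601 and 495 pairs (54.8%, 51.9 to 57.8). It was 1.11 from 52 to 54 Mb (52.5%, 47.7 to 57.3) and 1.08 from 57 to 59 Mb (51.97%, 49.7 to 54.2). The rest of chromosome 19 had 1.05 (51.2%, 50.2 to 52.1) and the other chromosomes 0.974. Pairs share regions, so these intervals are too narrow. When scores of 1 and 2 were left out, the window's ratio was 1.17, from 211 and 180 pairs (53.96%, 49.0 to 58.8), and that on the other chromosomes 0.998. The ratios were then 1.31 from 37 to 38 Mb, 1.12 from 52 to 54 Mb and 1.04 from 57 to 59 Mb. Which regions lie in finger repeats was not analysed here, so these counts are over all members.

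**Figure D5:**
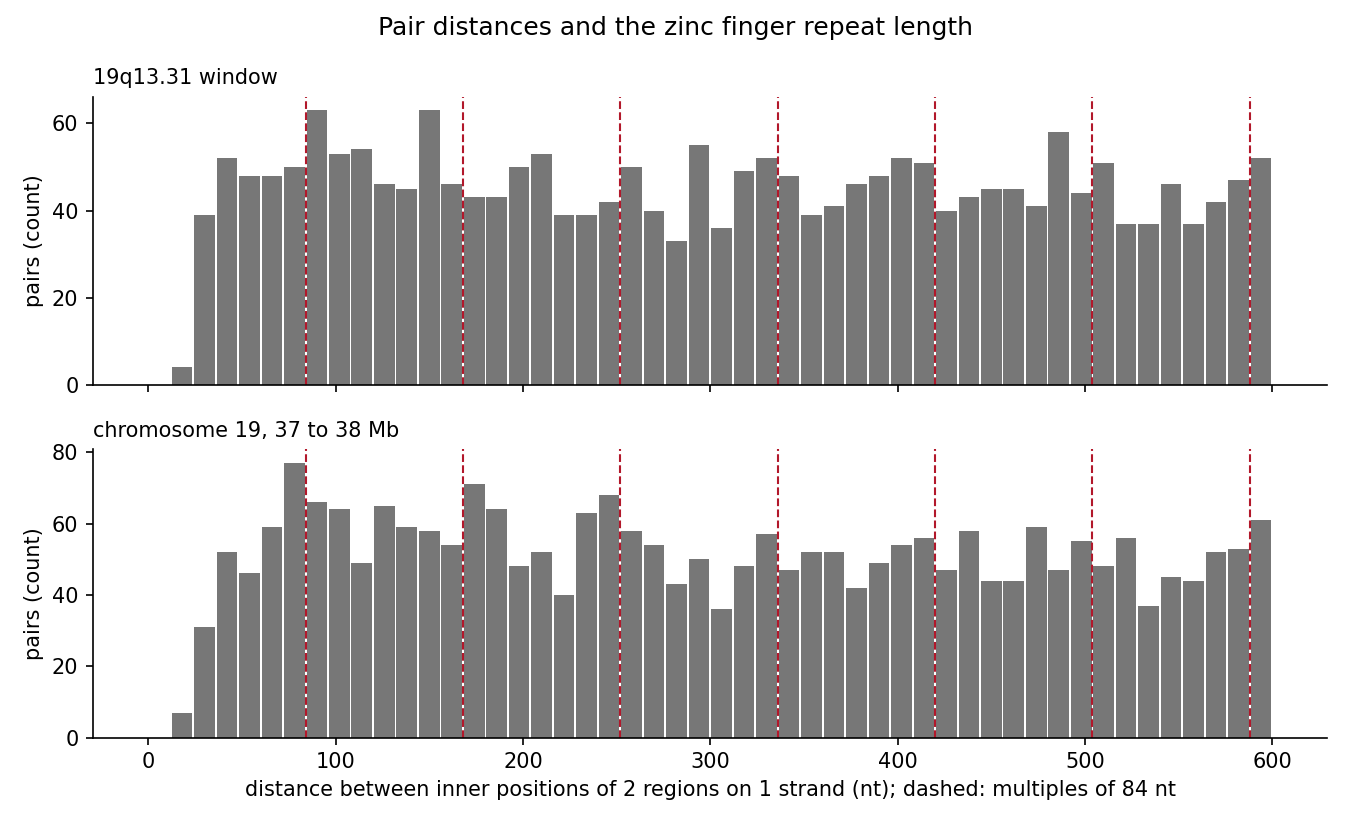
Number of pairs of same-strand regions by the distance between their inner positions in nt, in steps of 12 nt, for the window above and for 37 to 38 Mb of chromosome 19 below; dashed lines mark multiples of 84 nt. The counts in the window do not follow the dashed lines, with 476 pairs near them and 466 near the points 42 nt below them.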

How the data were processed

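The series deposited 1 list of regions for its 4 libraries. Per the file headers, the regions are on hg19 and passed a filter whose name includes 0.05; per the submitters' processing notes, BWA 0.5.8c was used. The list names no library and gives no value per library. Which of the 4 libraries it rests on, and the region caller, were not given in the sources used here. Per region the authors deposited 1 score, from 1 to 1000, with its meaning unstated, and 7 regions outside the window stood at 1000. The other deposited columns of the authors used here are coordinates, printed counting from 1. Distances between neighbours and gaps are edge to edge; distances in the repeat count are between inner positions. Shares have Wilson intervals at 95%. The members, lists and measures were chosen with earlier results of these data known. The plan named every array of at least 10 regions and the 10 regions of highest score; the comparison stretches and the 2-kb steps were added later. Further regions were named after their values were seen. Genes, gene parts, seed matches and AGO1 against AGO2 were planned and not run, lacking hg19 sequence and annotation and values per library. On 2300 simulated regions, 6 of 6 measures came back as simulated. The simulated repeat ran through every region of its runs, so the finding of a partial repeat was not checked. The work used scipy 1.17.1, pandas 2.3.3 and numpy 2.4.6 under Python 3.11.15, and figures were drawn with matplotlib 3.10.9.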

Additional observations from a re-analysis of the deposited data

How the results depend on the processing

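Of 15 other settings, 12 were run for 6 results, and 5 stayed within the 95% interval of the value or within 1.5 times of the count. Keeping only regions with a score of at least 3 left 447 members of 801 and 11 arrays of 20, with a median score of 5, a median width of 38 nt and a same-strand neighbour within 100 nt for 57.05% in place of 66.7%. With that minimum, pairs near multiples of 84 nt were 53.96% of both groups, in place of 50.5%. Distances between inner positions gave 55.9% for the same-strand neighbour share, since inner positions lie farther apart than edges. Run gaps of 500 and 2000 nt gave 20 and 21 arrays. The 3 alternatives for gene parts, exons and seed matches were not run, since they need hg19 annotation or sequence. No paired analysis was possible because the list gives no value per library.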

Other observations

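The 1-nt position that the file marks inside each region, whose meaning is not stated, lay toward the lower coordinate on both strands of the window. On a scale from 0 at the lower to 1 at the upper edge, the mean came to 0.449 over the 573 plus-strand and 0.446 over the 228 minus-strand regions, against 0.454 and 0.415 in the other nuclear regions. Read from 5′ to 3′, the mean in the window was 0.479, against 0.517 in the other nuclear regions. From 57 to 59 Mb, where most regions were also on the plus strand (1060 of 1298), it was 0.482, and from 37 to 38 Mb it was 0.520. The share of plus-strand regions moves with this mean, and its part in the difference was not tested.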
